A study of Mus musculus with 10 samples.

Results

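The clustered histone genes encode the linker histone H1 and the core histones H2A, H2B, H3 and H4, and their mouse symbols open with the number of the cluster they sit in. All rows of the deposited gene table with such a symbol (Hist1h to Hist4h) were taken, which gave 67 of 29583 rows. They comprised 6 linker H1 genes and 61 core histone genes, with 18 for H2A, 18 for H2B, 12 for H3 and 13 for H4. The cells were MC3T3-E1 (subclone 14), an osteoblast precursor line that was derived from the skull of the mouse and used here at passage 3. The labels give the strain C57BL/6, newborn age and a bone marrow mesenchymal stem cell source. Treated cells received 100, 150 or 200 μM β-ecdysterone, a plant steroid, for 5 or 10 days, and control cells received 0 μM for the same times. The labels call the remaining libraries, A-5 and B-4, untreated and give them no time. There were 6 treated, 2 0 μM and 2 untreated libraries, with 1 library per dose and day, so the doses served as replicates of treated cells and p-values measured only the spread between these libraries. All cells were of 1 line, and oligo(dT) beads were used to collect the mRNA of every library.

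Replication-dependent histone genes are transcribed mainly in S phase, when new DNA has to be packaged. Their mRNA usually carries no poly(A) tail and ends a few bases after a conserved stem-loop, which is bound by the protein Slbp and guides 3′ end cleavage. Some of these genes also give longer, polyadenylated transcripts, which end at a signal further downstream and are known from differentiating and non-dividing cells. Oligo(dT) beads retain the polyadenylated form, so the values below describe that form (and any tail-less RNA carried along) rather than the whole histone mRNA pool. In bulk RNA, fewer cells that express a gene and less RNA per cell cannot be told apart.

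Transcript models from GENCODE M21 (mouse genome GRCm38) were matched to all 67 genes by Ensembl identifier. A stem-loop was sought on the sense strand as 6 bases that open with GG, a loop of 4 bases that opens with TTT, and 6 bases that pair fully with the first 6. It was found in the longest model of 43 of the 67 genes, compared to 24 of 21834 other coding genes (0.11%). The stem-loops and their neighbouring bases are shown for genes whose levels are described below, with the stem-loop in capitals.
Hist1h1c: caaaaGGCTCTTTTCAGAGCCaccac
Hist2h2aa1: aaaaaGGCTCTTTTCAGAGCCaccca
Hist1h2bg: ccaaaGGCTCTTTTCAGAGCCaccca
Hist1h3c: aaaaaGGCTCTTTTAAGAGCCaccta
Hist1h4b: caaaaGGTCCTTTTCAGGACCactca
Hist1h4i: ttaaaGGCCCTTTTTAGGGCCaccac
All linker, H2A, H2B and H3 genes with a stem-loop shared the stem GGCTCT, and the H4 genes had GGCCCT or GGTCCT. The form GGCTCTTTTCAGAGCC alone was held by 25 genes. In 22 genes the model ran over 100 bases past the stem-loop, and in 21 it ended within 100 bases of it. Another 11 models went past the stop codon and held no stem-loop, and 13 ended at the stop codon. The last 30 bases of 3 such long models are shown because they carry a polyadenylation signal, AATAAA, in capitals.
Hist1h1c: ttctAATAAAaagcgtttagttttcattca
Hist2h2be: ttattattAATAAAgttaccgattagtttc
Hist2h3c1: ttttttaatcccAATAAAaatttaacacac
A polyadenylation signal lay in the last 40 bases of a model in 17 of the 67 genes.

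The libraries held between 27108562 and 58218009 counts of reads per gene, of which between 1990 and 6845 fell on clustered histones. Levels are given as CPM, the counts scaled to library sizes that were normalized by edgeR's TMM factors. The limit set by a count of 0 was taken as 3 counts, between 0.0502 and 0.118 CPM by library, and this limit and all intervals cover counting error only. A count was present in every library for 54 of the 67 genes, and Hist1h2aa had 0 counts in all 10 libraries. The 0 μM library of day 5 stood apart from that of day 10. Of the 67 genes, 58 were higher in it (86.6%), compared to 8393 of the 16794 rows tested against 0 μM. Hist2h2bb had 96 counts there and 1 count at 0 μM on day 10, and Hist1h3f had 38 and 0 counts. Its total was 48951468 counts, compared to 31300928 on day 10. Untreated B-4 also stood apart and held the highest level of the 10 libraries for 22 of the genes, while 0 μM on day 5 held it for 23.

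Histone RNA was concentrated in few genes. Hist1h1c, Hist2h2aa1 and Hist1h2bc made up 51.5% of the mean histone CPM, and the 17 genes with a mean of at least 1 CPM made up 87.6%. Per transcript length, the mean over the 10 libraries was highest for Hist2h2aa1 with 30.4 FPKM, followed by its near-identical copy Hist2h2aa2 with 18.9 FPKM. Hist1h1c had 14.9 FPKM, Hist1h2bc 13.7 FPKM and Hist1h2bg 3.92 FPKM. All of the other genes had a mean under 3 FPKM. The most abundant of these histones, Hist1h1c, ranked 6924 by mean CPM among the 29583 rows. The 37 genes that are not described by name below had means of 0.856 CPM or less. Just above the limit of 1 CPM lay Hist2h3c2 (1.05 CPM) and Hist1h1e (1.01 CPM), and just below it lay Hist1h2bn (0.856 CPM) and Hist1h3d (0.845 CPM).

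**Figure D1:**
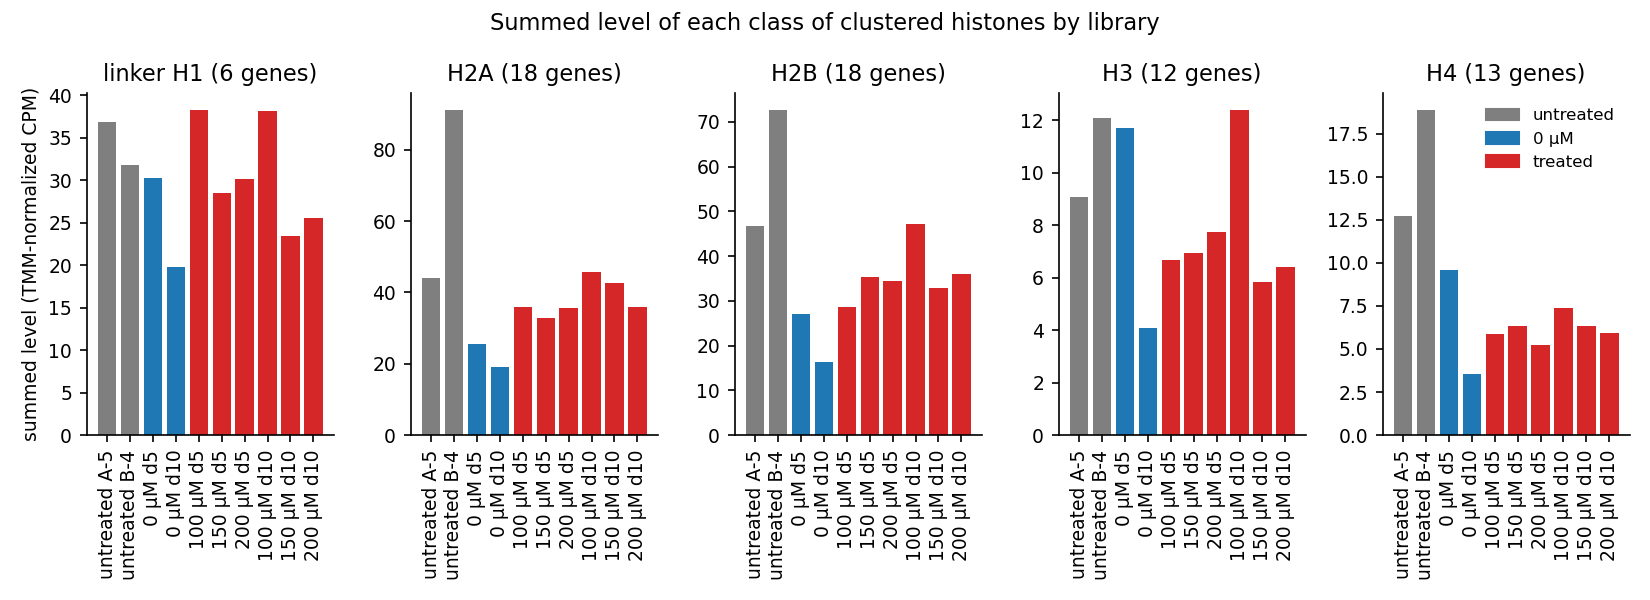
Summed TMM-normalized CPM (y axis) of the linker H1, H2A, H2B, H3 and H4 genes in each of the 10 libraries (x axis, dose and day), with 1 bar per library, grey for untreated, blue for 0 μM and red for treated cells. H2A and H2B were highest in untreated B-4 and lowest at 0 μM on day 10, whereas H3 was at 11.7 CPM at 0 μM on day 5 and 12.4 CPM at 100 μM on day 10.

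Linker histones bind the DNA that enters and leaves the nucleosome. Hist1h1c (chromosome 13, 23738808 to 23740367, plus strand), which encodes H1.2, had 31.1 CPM in untreated A-5 and 29.2 CPM in untreated B-4. At 0 μM it had 24.3 CPM on day 5 and 17.3 CPM on day 10. In treated cells it had 34.0, 24.3 and 27.2 CPM at 100, 150 and 200 μM on day 5, and 33.3, 20.1 and 22.3 CPM on day 10. The treated libraries overlapped with both control groups. The fitted log2 fold change against 0 μM was 0.37 (SE 0.20, adjusted p = 0.162, edgeR), and against untreated cells it was -0.17 (SE 0.20, adjusted p = 0.575). Hist1h1d, which encodes H1.3, had between 1.42 and 2.35 CPM in treated cells and 3.18 and 1.45 CPM at 0 μM. Hist1h1e, which encodes H1.4, had between 0.693 and 1.18 CPM and 1.49 and 0.537 CPM. Their log2 fold changes against 0 μM were -0.31 (SE 0.30) and 0.02 (SE 0.38), with adjusted p = 0.435 and 0.973 (edgeR). Part of the Hist1h1e model overlaps an exon of Hist1h2be on the same strand. Hist1h1t, the linker histone of the testis, had 3 counts in each of the 2 treated libraries that had any and 0 counts in the other 8.

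Summed over the 6 linker genes, the treated libraries had 30.7 ± 6.28 CPM (SD, n = 6). The 0 μM libraries had 30.3 and 19.8 CPM, and the sum was 36.9 and 31.8 CPM in untreated A-5 and B-4. The log2 difference between treated cells and 0 μM was 0.29, and it was -0.17 without Hist1h1c. Summed over the 61 core genes, the treated libraries had 87.8 ± 12.7 CPM (SD, n = 6). The 0 μM libraries had 73.8 and 43.1 CPM, and the sum was 112.5 and 194.9 CPM in untreated cells. The log2 difference of the core genes was 0.59 against 0 μM and -0.81 against untreated cells, while that of the linker genes was -0.16 against untreated cells. The sums are descriptions without a test. Linker genes held 31.5% of the histone counts at 0 μM on day 10 (95% Wilson interval 29.5 to 33.5%) and 29.1% on day 5 (27.9 to 30.3%). The share was between 21.1% (20.1 to 22.1%) and 33.1% (31.6 to 34.7%) in treated libraries. It was 24.7% in untreated A-5 (23.5 to 26.0%) and 14.0% in untreated B-4 (13.2 to 14.9%), which lay below all other libraries.

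H2A pairs with H2B in the nucleosome core. Hist2h2aa1 (chromosome 3, 96245497 to 96246082, plus strand) had 12.4 and 6.23 CPM at 0 μM on days 5 and 10. In treated cells it had 16.2, 14.4 and 19.6 CPM at 100, 150 and 200 μM on day 5, and 22.1, 20.4 and 19.1 CPM on day 10. The 6 treated libraries lay above both 0 μM libraries. In untreated A-5 and B-4 it had 20.6 and 51.4 CPM, the latter more than in any other library. Its copy Hist2h2aa2 had 2.22 and 6.23 CPM at 0 μM and between 9.57 and 16.1 CPM in treated cells, again without overlap. The log2 fold change against 0 μM was 1.64 for Hist2h2aa2 (SE 0.30, adjusted p = 0.0017, edgeR), a rise. For Hist2h2aa1 it was 0.98 (SE 0.26, adjusted p = 0.013), just under the fold limit of 1. Reads of these copies cannot be assigned with certainty. Another gene, Gm20634, shares 88.9% of the sequence of Hist2h2aa1 and 100% of that of Hist2h2aa2. It overlaps Hist2h2aa1 on the same strand and was not part of the sum below. With their counts summed, an alternative added after the data were seen, the pair had 14.6 and 12.5 CPM at 0 μM and 29.6, 24.1 and 29.2 CPM at 100, 150 and 200 μM on day 5, and 36.8, 36.5 and 29.2 CPM on day 10. The summed pair was higher than 0 μM by 1.16 on the log2 scale (SE 0.16, adjusted p = 3.8e-04, edgeR).

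Among H2A genes at low levels, 2 fell. Hist1h2ag had 0.531 and 0.664 CPM at 0 μM (27 and 21 counts) and between 0.033 and 0.158 CPM in treated cells, with 1 to 4 counts per library. Hist1h2ao had 0.668 and 0.695 CPM at 0 μM and between 0.0564 and 0.251 CPM in treated cells, with 3 to 15 counts. Neither gene's treated libraries overlapped with 0 μM. Both fell, with log2 fold changes of -3.04 (SE 0.55, adjusted p = 0.0017) and -2.12 (SE 0.47, adjusted p = 0.0052) in edgeR. They passed edgeR's filter on low counts only through the 0 μM libraries, so they could only be called lower. Without the 0 μM library of day 10, Hist1h2ao was no longer called (-1.61, adjusted p = 0.12, edgeR). These genes belong to a unit of 11 H2A genes that are linked through shared sequence, in which Hist1h2ac and Hist1h2ae did not themselves share over 50% of their sequence with 1 other gene. The summed unit had 5.09 and 3.51 CPM at 0 μM and between 2.08 and 4.45 CPM in treated cells, a log2 fold change of -0.70 (SE 0.30, adjusted p = 0.0865, edgeR) that did not pass. Hist3h2a, a gene of cluster 3, had 3.18 and 2.81 CPM at 0 μM and between 3.61 and 5.84 CPM in treated cells (log2 fold change 0.49, SE 0.22, adjusted p = 0.095, edgeR). Its model overlaps an exon of Trim17 on the same strand. Hist1h2ac had 0.845 and 0.569 CPM at 0 μM and between 0.808 and 1.14 CPM in treated cells, and its log2 fold change of 0.32 (SE 0.31) did not pass.

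Among the H2B genes, Hist1h2bc (chromosome 13, 23684199 to 23692908, plus strand) had the smallest adjusted p against 0 μM. Its longest model is spliced from 2 exons and holds no stem-loop. It had 8.0 CPM at 0 μM on day 5 and 6.64 CPM on day 10. In treated cells it had 15.3, 18.4 and 18.1 CPM at 100, 150 and 200 μM on day 5, and 27.7, 17.6 and 20.9 CPM on day 10. Every treated library lay above both 0 μM libraries. Hist1h2bc rose by 1.39 on the log2 scale (SE 0.21, adjusted p = 5.8e-04, edgeR). Leaving out any 1 library moved the value to between 1.09 and 1.72. In untreated A-5 and B-4, however, it had 17.5 and 30 CPM, and treated cells differed from them by -0.28 on the log2 scale (SE 0.25, adjusted p = 0.449). Hist1h2bg had 1.77 and 0.980 CPM at 0 μM and between 2.14 and 3.66 CPM in treated cells. Its log2 fold change of 1.01 (SE 0.32, adjusted p = 0.026, edgeR) lay at the fold limit and was not called under 7 of 15 alternatives. Leaving out 0 μM on day 10 gave 0.56 (adjusted p = 0.29, edgeR).

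Hist2h2be (chromosome 3, 96221119 to 96223738, plus strand), whose long model ends in the AATAAA signal shown above, was highest in untreated cells. It had 5.76 and 4.11 CPM at 0 μM and between 3.69 and 6.81 CPM in treated cells, and these groups overlapped. In untreated A-5 and B-4 it had 18.3 and 29.3 CPM, above every other library. The log2 fold change was 0.05 against 0 μM (SE 0.24, adjusted p = 0.891) and -2.23 against untreated cells (SE 0.23, adjusted p = 0.0011, edgeR), a fall. Hist1h2be, Hist1h2bq and Hist1h2br had means between 1.15 and 2.01 CPM and log2 fold changes of 0.59, -0.01 and 0.56 against 0 μM, none of which passed. Hist1h2bq and Hist1h2br share near-identical spliced models.

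**Figure D2:**
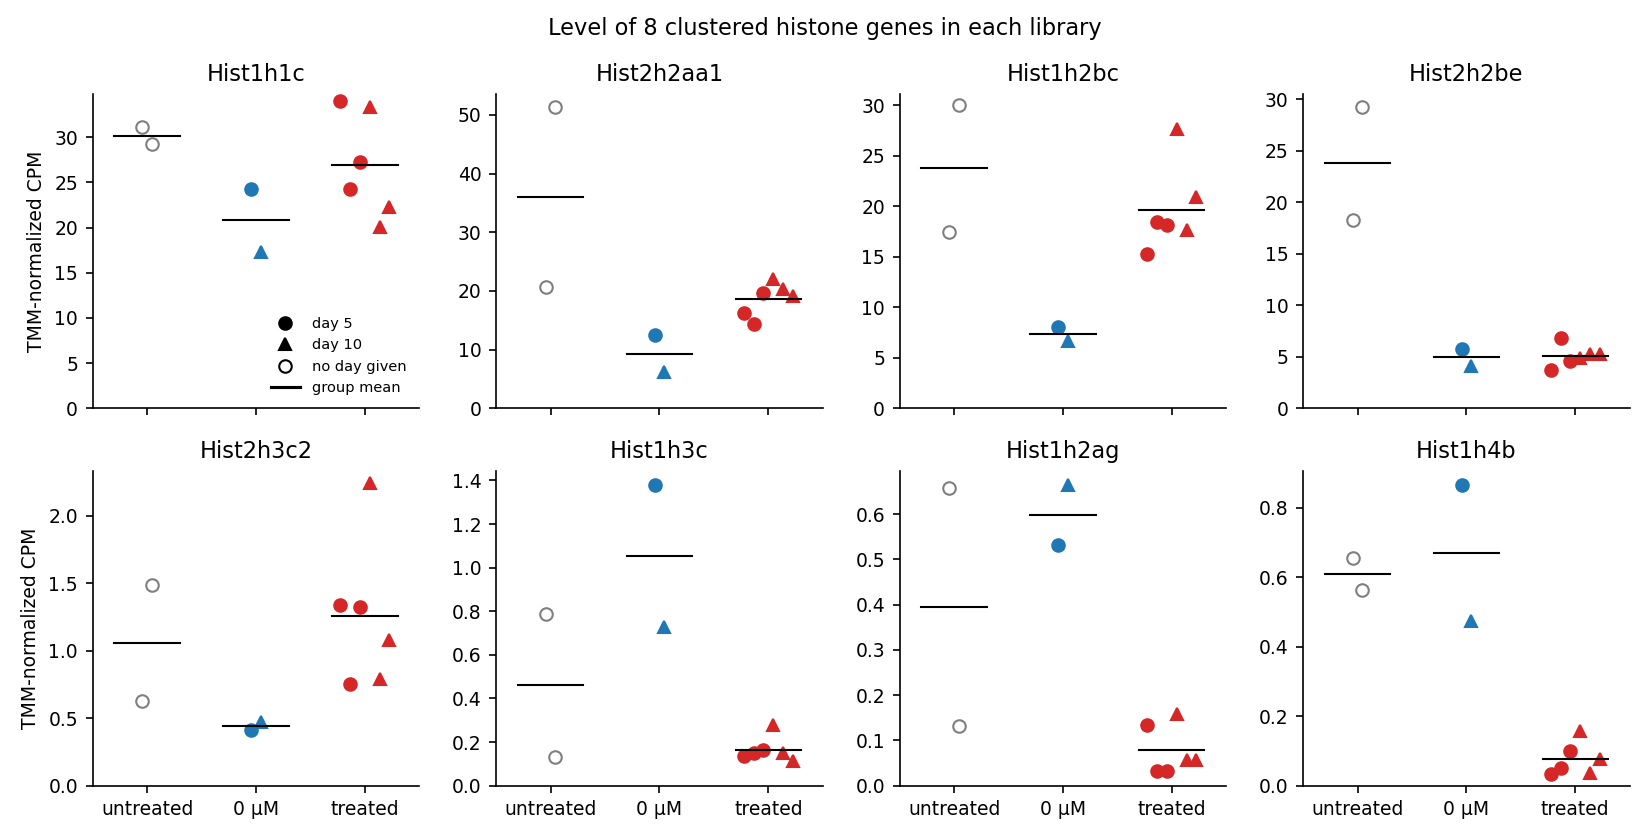
TMM-normalized CPM (y axes from 0) of 8 clustered histone genes in the untreated, 0 μM and treated libraries (x axis), with 1 point per library, circles for day 5, triangles for day 10, open circles for the untreated libraries without a day, and a line at each group mean. Hist2h2aa1 and Hist1h2bc were higher in all 6 treated libraries than at 0 μM, Hist2h2be was high only in the untreated libraries, and Hist1h3c, Hist1h2ag and Hist1h4b were lower in all 6 treated libraries than at 0 μM.

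H3 and H4 form the central tetramer of the nucleosome. Hist2h3c1 had 3.05 and 1.01 CPM at 0 μM and 3.25, 3.78, 4.03, 5.91, 2.97 and 3.69 CPM in treated cells, from 100 to 200 μM on day 5 and then day 10. Its log2 fold change against 0 μM was 0.97 (SE 0.40, adjusted p = 0.078, edgeR). The model of Hist2h3c1 shares 100% of its sequence with Gm20634, which overlaps it on the same strand. The neighbouring copy Hist2h3c2 had 0.413 and 0.474 CPM at 0 μM and between 0.753 and 2.24 CPM in treated cells, without overlap. Hist2h3c2 rose by 1.45 on the log2 scale (SE 0.48, adjusted p = 0.032, edgeR). It was not called under 6 of 15 alternatives, which included leaving out the 0 μM library of day 5 (adjusted p = 0.14) or of day 10 (adjusted p = 0.16) and the treated library of 100 or 200 μM on day 5 (adjusted p = 0.052 and 0.058, edgeR). With the counts of Hist2h3b, Hist2h3c1 and Hist2h3c2 summed, the log2 fold change was 0.72 (SE 0.38, adjusted p = 0.151) and did not pass. Hist1h3c (chromosome 13, 23744973 to 23745602, minus strand) had 1.38 CPM at 0 μM on day 5 and 0.727 CPM on day 10 (70 and 23 counts). In treated cells it had between 0.115 and 0.276 CPM, with 4 to 9 counts per library. The treated libraries lay below both 0 μM libraries. Hist1h3c fell by 2.69 on the log2 scale (SE 0.41, adjusted p = 6.2e-04, edgeR). It passed edgeR's filter on low counts only through the 0 μM libraries, so it could only be called lower. In untreated A-5 and B-4 it had 0.789 and 0.132 CPM, so that B-4 lay among the treated libraries.

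Among the H4 genes, Hist1h4b (chromosome 13, 23757013 to 23757409, plus strand) had 0.865 and 0.474 CPM at 0 μM (44 and 15 counts) and 0.657 and 0.563 CPM in untreated A-5 and B-4. In treated cells it had between 0.0335 and 0.158 CPM, from 1 to 4 counts per library. The 6 treated libraries lay below all 4 control libraries. Against 0 μM and untreated cells alike, Hist1h4b passed edgeR's filter on low counts only through the control libraries, so it could only be called lower. Hist1h4b fell against 0 μM (log2 fold change -3.20, SE 0.54, adjusted p = 0.0012) and against untreated cells (-3.06, SE 0.51, adjusted p = 0.0046, edgeR). Without the 0 μM library of day 5 the former was -2.51 and not called (adjusted p = 0.056, edgeR). Hist1h4c had 0.825 and 0.316 CPM at 0 μM and between 0.099 and 0.354 CPM in treated cells, which overlapped, and fell by 1.53 on the log2 scale (SE 0.55, adjusted p = 0.047, edgeR). It was not called under 7 of 15 alternatives, and without the 0 μM library of day 5 the value was -0.24 (adjusted p = 0.84, edgeR). Both belong to a unit of 6 H4 genes that are linked through shared sequence, although neither itself shared over 50% of its sequence with 1 other gene. The unit's summed log2 fold change against 0 μM was -0.86 (SE 0.41, adjusted p = 0.115, edgeR). Hist1h4i, the most abundant H4 gene, had 1.18 and 1.07 CPM at 0 μM and between 1.58 and 2.29 CPM in treated cells, without overlap. Its log2 fold change of 0.82 (SE 0.26, adjusted p = 0.027, edgeR) was under the fold limit. Hist2h4 had 1.18 and 0.316 CPM at 0 μM, between 1.30 and 1.86 CPM in treated cells and 2.27 and 5.13 CPM in untreated cells. Against 0 μM its log2 fold change was 1.05 (SE 0.42, adjusted p = 0.068, edgeR).

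Over all members, the comparison with 0 μM asks how histone RNA differed between treated and control cells. Of the 67 genes, 48 passed edgeR's filter on low counts and 19 did not. With day as a covariate, 4 of the 48 were higher (Hist2h2aa2, Hist2h3c2, Hist1h2bc and Hist1h2bg), compared to 13.4% of the 16794 rows tested. Another 5 were lower (Hist1h4b, Hist1h2ag, Hist1h3c, Hist1h2ao and Hist1h4c), compared to 5.98% of the rows. With library totals in place of TMM these counts were 3 and 7, and with near-identical copies summed they were 3 and 1 of 27 units, the lower one being Hist1h3c. Among the 5 lower genes, Hist1h4b, Hist1h2ag, Hist1h3c and Hist1h2ao passed the filter on low counts only through the 0 μM libraries. Such genes could only be called lower, so the 5 cannot be set against the 5.98% of all rows. The median and the number of genes below both 0 μM libraries, given next, carry this limit too. None of the 4 linker genes tested was called in edgeR or DESeq2. At an unadjusted p under 0.05 there were 0 of them, compared to 8645 of the 16794 rows. The median log2 fold change was -0.19 over the 48 genes and 0.05 over all rows. The treated libraries lay above both 0 μM libraries for 8 of the 48 genes (27.5% of all rows tested) and below both for 7 (25.2%). The counts depended on single libraries. Without the 0 μM library of day 5 they became 9 higher and 3 lower, and without that of day 10 they became 2 higher and 10 lower. Without the 200 μM library of day 5 they were 2 higher and 4 lower, and without the 100 μM library of day 10 they were 3 higher and 9 lower. Hist2h2aa1 (1.71), Hist2h3c1 (2.03), Hist2h4 (2.32) and Hist1h2be (1.89) were called higher without the 0 μM library of day 5, whereas without that of day 10 their log2 fold changes were 0.41, 0.26, 0.30 and -0.23. Of the 20 genes tested that are not named here, 14 had a negative log2 fold change, in a range from -2.22 to 1.23.

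**Figure D3:**
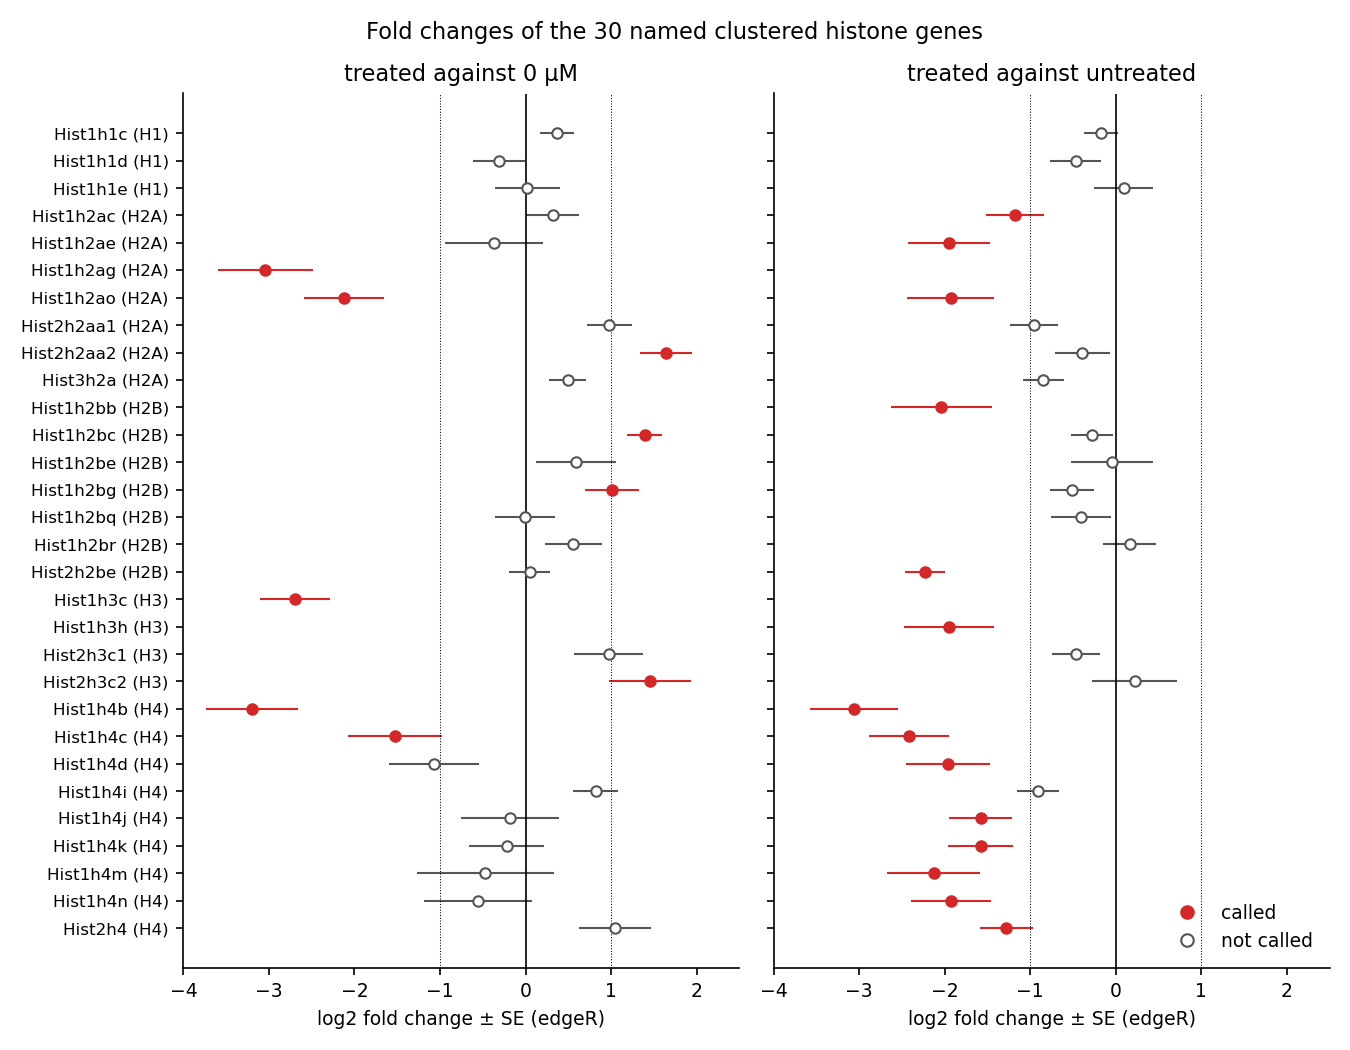
Log2 fold changes with standard errors (x axes, edgeR) of the 30 named genes (y axis, with the histone class in brackets), for treated cells against 0 μM (left) and against untreated cells (right); filled red points were called, open points were not, dotted lines mark the fold limit and a missing point was not tested. Against 0 μM, 4 genes lay to the right and 5 to the left among those called, while against untreated cells all 14 called genes lay to the left. Some genes called to the left passed the filter on low counts only through the control libraries.

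The comparison with untreated cells gave another picture. Of 46 genes tested, 0 were higher (6.73% of 16012 rows) and 14 were lower (2.87% of rows). DESeq2 also gave 0 higher and 13 lower, compared to 1441 and 503 of the 16012 rows. At an unadjusted p under 0.05 there were 0 higher and 23 lower genes, compared to 2866 and 2810 of the rows. The lower genes comprised 8 of the 11 H4 genes tested (Hist1h4b, Hist1h4c, Hist1h4m, Hist1h4d, Hist1h4n, Hist1h4k, Hist1h4j and Hist2h4) and 3 of the 11 H2A genes (Hist1h2ae, Hist1h2ao and Hist1h2ac). They also comprised Hist2h2be and Hist1h2bb of the H2B genes and Hist1h3h of the H3 genes. Hist1h4b, Hist1h4c, Hist1h4m, Hist1h4j, Hist1h2ae, Hist1h2ao, Hist1h2bb and Hist1h3h had at most 17 counts in any treated library. These passed the low-count filter only through the untreated libraries, so they could only be called lower. The remaining called genes also passed through treated libraries. The count of lower genes and the medians below carry this limit. The median log2 fold change was -0.93 over the 46 genes, -1.58 over the H4 genes and -0.28 over the H2B genes. Summed over the 13 H4 genes, the level was 12.7 and 18.9 CPM in untreated A-5 and B-4, 9.57 and 3.54 CPM at 0 μM, and between 5.21 and 7.40 CPM in treated cells. The treated H4 sums thus lay below both untreated libraries and between the 0 μM libraries. With near-identical copies summed, 7 of 25 units were lower, among them the units of 11 H2A genes and 6 H4 genes named above. Without B-4 the count fell to 7 genes, and it was 13 without A-5. Time cannot be told apart from treatment here, because the untreated libraries have no day.

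Most of these genes were at low levels, with counts below 100 in each untreated library except for Hist2h2be and Hist2h4. Hist1h4n had 1.08 and 1.72 CPM in untreated A-5 and B-4 and between 0.154 and 0.709 CPM in treated cells, and fell by 1.93 on the log2 scale (SE 0.47, adjusted p = 0.02, edgeR). Hist1h4k had 0.723 and 1.82 CPM in untreated cells and between 0.338 and 0.512 CPM in treated cells, and fell by 1.58 (SE 0.38). Hist1h4d had 0.821 and 1.39 CPM and between 0.115 and 0.462 CPM, and fell by 1.96 (SE 0.49). In none of these did the treated and untreated libraries overlap. Hist1h4c fell by 2.42 (SE 0.47), Hist1h4m by 2.13 (SE 0.54), Hist1h4j by 1.58 (SE 0.37) and Hist2h4 by 1.28 (SE 0.31) on the log2 scale. Their untreated levels were between 0.394 CPM (Hist1h4m in A-5) and 5.13 CPM (Hist2h4 in B-4). Of the H2A genes, Hist1h2ae had 1.25 and 0.960 CPM in untreated cells and between 0.192 and 0.670 CPM in treated cells, and fell by 1.95 (SE 0.48). Hist1h2ao fell by 1.93 (SE 0.51) and Hist1h2ac by 1.18 (SE 0.34). Hist1h3h, at 0.526 and 0.364 CPM in untreated cells and between 0.0384 and 0.197 CPM in treated cells, fell by 1.95 (SE 0.53). Hist1h2bb, at 0.361 and 0.331 CPM and between 0.0335 and 0.201 CPM, fell by 2.04 (SE 0.59). Hist2h2aa1 (-0.96, SE 0.28, adjusted p = 0.042), Hist3h2a (-0.85, SE 0.24, adjusted p = 0.036) and Hist1h4i (-0.91, SE 0.24, adjusted p = 0.027) had an adjusted p under 0.05 in edgeR but stayed within the fold limit. The genes that had risen against 0 μM were not called against untreated cells, with log2 fold changes of -0.39 for Hist2h2aa2, 0.22 for Hist2h3c2, -0.28 for Hist1h2bc and -0.51 for Hist1h2bg.

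Within treated cells, day 10 was compared with day 5. Of 33 genes tested, 0 were higher (0.905% of 16020 rows) and 0 were lower (0.144% of rows) in edgeR, with 1 gene at an unadjusted p under 0.05 and 0 in DESeq2. The test of a difference between days in the effect against 0 μM gave 0 of 62 genes (0.0112% of 17799 rows), with 17 at an unadjusted p under 0.05. The fitted difference was larger on day 10 for 57 of the 62 genes, with a median of 1.53 on the log2 scale, compared to 0.02 over all rows. This difference rests on 1 library at 0 μM on each day. The low-count filter of this fit could pass a gene on 1 library alone. Some genes entered through 0 μM on day 5, where they were high, such as Hist1h4f (47 counts there, at most 5 in any other library). For such genes a larger difference on day 10 was set by how they entered, so the 57 of 62 cannot be read as a shift. On day 5 the summed level of treated cells differed from 0 μM by 0.46 for H2A and 0.28 for H2B on the log2 scale, and by -0.72 for H3 and -0.72 for H4. On day 10 the log2 differences were 1.11, 1.25, 1.01 and 0.89. For the linker genes they were 0.09 on day 5 and 0.55 on day 10. At 0 μM, H3 summed to 11.7 CPM on day 5 and 4.08 CPM on day 10, while the treated libraries had a median of 6.80 CPM over both days.

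**Figure D4:**
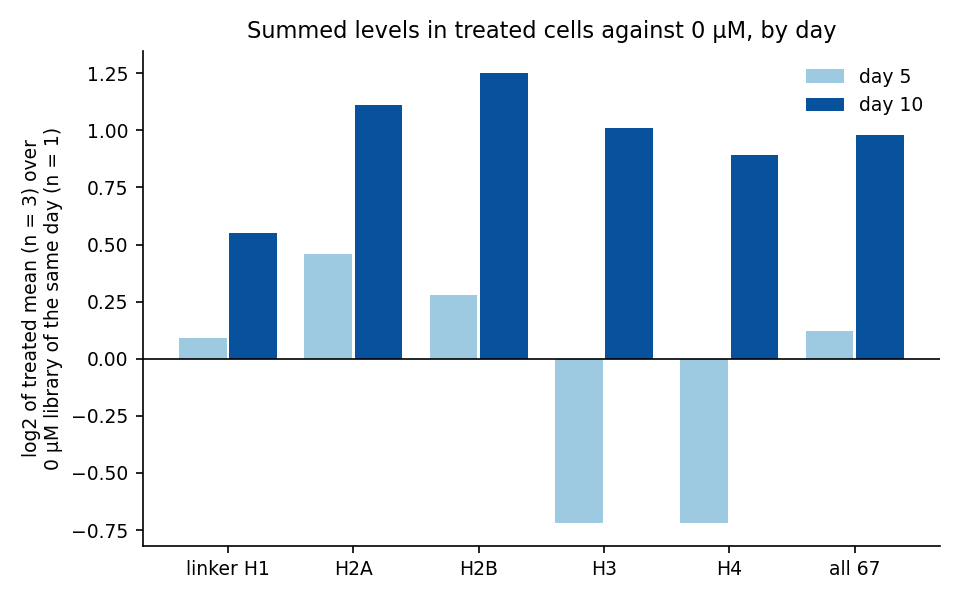
Log2 of the mean summed CPM of the 3 treated libraries over the 0 μM library of the same day (y axis) for each histone class and all 67 genes (x axis), with light bars for day 5 and dark bars for day 10 and no error because each day has 1 library at 0 μM. H3 and H4 were at -0.72 on day 5 and at 1.01 and 0.89 on day 10.

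By the kind of transcript model, 12 of the 19 tested genes whose model runs past the stem-loop had a positive log2 fold change against 0 μM (median 0.32). Of the 16 tested genes whose model ends near the stem-loop, 13 had a negative one (median -0.69). Over all 16794 rows tested, 8923 were positive and 7871 negative. Among the 13, Hist1h4b, Hist1h2ag, Hist1h3c and Hist1h2ao passed the low-count filter only through the 0 μM libraries, so their sign was set by how they entered. These counts therefore cannot be read as a difference between the kinds, which was not tested. Of the 5 genes called lower, 4 had models that end near the stem-loop, and Hist1h4c had one that runs past it. Of the 4 called higher, 2 had models that run past the stem-loop, Hist1h2bc had one without a stem-loop, and Hist2h2aa2 had one that ends near it. Summed over the 21 genes with models that end near the stem-loop, the level was nevertheless higher than 0 μM, by 0.60 on the log2 scale. The Hist2h2aa copies made up most of that sum. Over the 22 genes whose models run past the stem-loop, the log2 difference of the sums was 0.40. Models that end near it and models that run past it differed from 0 μM by 0.15 and 0.10 on day 5. On day 10 these values were 1.10 and 0.78. Over the 13 genes whose models end at the stop codon, the sum was 7.74 CPM at 0 μM on day 5, 2.12 CPM at 0 μM on day 10 and between 2.76 and 4.41 CPM in treated cells.

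Genes that act on histone mRNA and histone protein were compared in the same fit. Of all 16794 rows tested against 0 μM, 13.4% were called higher and 5.98% lower in edgeR, and DESeq2 called 2310 and 974. At an unadjusted p under 0.05, 4541 of these rows were higher and 4104 lower. Of 20 genes for histone mRNA 3′ end processing and turnover, 0 were called against 0 μM in either direction by edgeR or DESeq2, and 1 higher and 8 lower had an unadjusted p under 0.05 (median log2 fold change -0.18). Slbp, the stem-loop binding protein, had 65.8 and 65.3 CPM at 0 μM and between 34.5 and 50.7 CPM in treated cells. Its log2 fold change of -0.64 (SE 0.10, adjusted p = 9.2e-04, edgeR) was below zero but under the fold limit. Lsm11, a subunit of the particle that directs cleavage of histone mRNA, had one of -0.51 (SE 0.15, adjusted p = 0.02), and its partner Lsm10 one of -0.34 (SE 0.15, adjusted p = 0.102). Casp8ap2 (-0.36, adjusted p = 0.044), Npat (-0.09, adjusted p = 0.425), a transcriptional activator of histone genes, and Zfp473 (0.73, adjusted p = 0.068) were likewise not called. Of 22 histone chaperones and acetylation enzymes, 8 fell and 0 rose in edgeR and in DESeq2, and 0 were higher at an unadjusted p under 0.05. The largest falls were in Asf1b (-2.19, SE 0.19), Chaf1b (-1.60, SE 0.18), Tonsl (-1.52, SE 0.13), Chaf1a (-1.44, SE 0.12) and Mms22l (-1.37, SE 0.16). Chaf1a and Chaf1b are subunits of the complex that deposits new H3 and H4 at replication forks. Of 11 replication-independent histone genes tested, 2 fell, namely H2afz (-1.23, SE 0.15), the H2A.Z variant, and Cenpa (-1.79, SE 0.23), the H3 variant of the centromere.

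The list of S phase and proliferation genes also holds the cell cycle inhibitors Cdkn1a, Cdkn1b, Cdkn1c and Cdkn2c. Of 28 listed genes tested against 0 μM, 19 fell and 0 rose in edgeR and in DESeq2, with a median log2 fold change of -1.41. Of all 16794 rows, 5.98% fell and 13.4% rose in edgeR. At an unadjusted p under 0.05, 2 listed genes were higher and 24 lower, compared to 4541 and 4104 of the rows. The largest falls were in Mcm5 (-2.23, SE 0.21), E2f2 (-2.22, SE 0.22), Cdt1 (-1.83, SE 0.15), Ccnb1 (-1.77, SE 0.23) and Mcm3 (-1.74, SE 0.18). Summed over the 29 listed genes, inhibitors included, the level was 4884 and 5131.3 CPM at 0 μM and between 2394.9 and 3386 CPM in treated cells. In untreated A-5 and B-4 this S phase sum was 3964 and 1614.3 CPM. The summed clustered histones were 104.1 and 62.9 CPM at 0 μM, between 109.7 and 150.8 CPM in treated cells, and 149.3 and 226.7 CPM in untreated cells. B-4 thus had the lowest S phase sum and the highest histone sum, and 0 μM on day 10 the reverse. In the comparison with untreated cells, 0 of the 28 S phase genes were called by edgeR or DESeq2. At an unadjusted p under 0.05, 1 was higher and 2 lower, compared to 2866 and 2810 of all 16012 rows. The S phase sums of A-5 and B-4 lay on either side of the treated libraries. The part of S phase activity in the histone results was not tested.

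**Figure D5:**
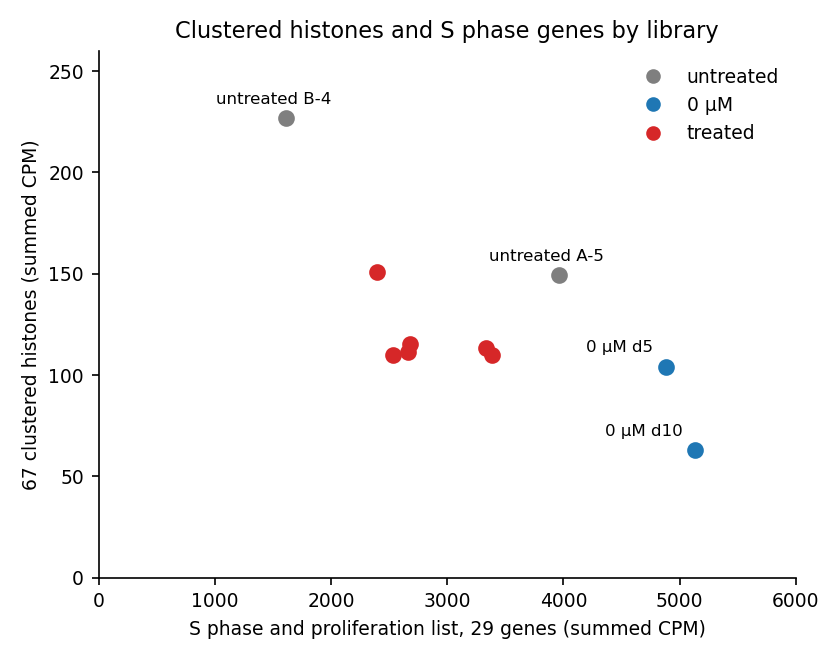
Summed TMM-normalized CPM of the 67 clustered histone genes (y axis) against that of the 29 genes of the S phase and proliferation list (x axis). The list includes the cell cycle inhibitors Cdkn1a, Cdkn1b, Cdkn1c and Cdkn2c. There is 1 point per library, grey for untreated, blue for 0 μM and red for treated cells. The 0 μM libraries lie at the right with 104.1 and 62.9 CPM of histones, and untreated B-4 lies at the upper left with 226.7 CPM.

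The cell type labels were checked against marker genes. All 10 osteoblast markers were tested, and 5 rose against 0 μM (Runx2, Sp7, Alpl, Ibsp and Postn), compared to 13.4% of all rows. Spp1 went the other way, with a log2 fold change of -0.56 (SE 0.18, adjusted p = 0.032, edgeR) within the fold limit. Col1a1 (0.01), Col1a2 (0.09), Bglap (1.57) and Bglap2 (0.34) were not called. The 10 markers summed to 22472 and 27384.6 CPM at 0 μM and between 32609.9 and 70157.1 CPM in treated cells. Most of the rise of this sum lay in Postn, with 624.8 and 959.5 CPM at 0 μM and between 15819.5 and 36224.8 CPM in treated cells. In untreated cells the sum of the 10 markers was 15230.4 and 14618.8 CPM. Alpl had 0 counts at 0 μM on day 5. Markers of other cell types were low, each with at most 3.99 CPM in any library (Fabp4, adipocyte). The 6 adipocyte markers summed to at most 5.70 CPM in any library, with Adipoq and Cfd at 0 in both 0 μM libraries. The 6 macrophage markers summed to at most 2.06 CPM, the 5 endothelial markers to at most 2.68 CPM, the 6 skeletal muscle markers to at most 4.21 CPM and the 6 testis germ cell markers to at most 0.569 CPM. Of these, Lep (adipocyte), Cdh5 and Tek (endothelial), Ckm (muscle) and Ddx4 (germ cell) rose against 0 μM, at levels of at most 1.81 CPM in treated cells. The sum of the adipocyte markers was between 2.63 and 5.70 CPM in treated cells and 1.90 and 2.14 CPM at 0 μM, and that of the endothelial markers between 2.21 and 2.68 CPM and 0.609 and 0.822 CPM. Their part in the histone results was not tested.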

How the data were processed

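RNA was enriched on oligo(dT) beads and sequenced on the Illumina platform, with libraries made by the TruSeq RNA kit. Raw counts for each gene and FPKM values, which the authors had scaled to transcript length and library size, were deposited in 1 table. The submitters' processing notes name HISAT2 2.0.4 and GATK 3.2-2. The counting program, its strand setting and the genome build are not given in the sources used here. Fold changes and p-values of 13 comparisons made by the authors were not used. No per-library column was left out.

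The clustered histone genes, the gene lists and the tests were chosen with earlier results of these data known. The counts of all rows were fitted with edgeR 4.0.16 (quasi-likelihood test, TMM, filterByExpr) in R 4.3.3. Treated libraries were compared with 0 μM (day as a covariate), with untreated cells, and between days. An interaction term tested the difference between days. Calls required a log2 fold change above 1 or below -1 together with p under 0.05 after Benjamini-Hochberg adjustment over all rows tested. The common biological coefficient of variation was 0.166 against 0 μM, 0.247 against untreated cells and 0.155 between days. The fits were tested on simulated data. DESeq2 1.42.0, limma 3.58.1 on log2(FPKM + 1), other scalings and filters, and each library left out were alternatives. Tables and figures were made with pandas 2.3.3, numpy 2.4.6, scipy and matplotlib.

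Named genes are the clustered histones with a mean of at least 1 CPM, those called in any comparison and the most abundant of each class, as well as Slbp, Npat, Casp8ap2, Lsm10, Lsm11, Zfp473 and the 5 called genes of each other list with the largest fold change. Hist2h2bb, Hist1h3f, Hist1h1t and Hist1h2aa were named after their values were seen. Genes were taken as near-identical copies when over 50% of their 75-base windows were shared with 1 other gene. By this measure 25 of the 67 genes had a copy, and 39 units were formed by joining each copy to the genes it shared over 50% of its windows with, so that a unit can hold genes that are not copies themselves. Exons of another gene overlapped 7 members on the same strand and 21 on the other strand, and without a known strand setting such reads cannot be told apart. Of the 21 genes listed for 3′ end processing, Ars2 is the same gene as Srrt, and H3f3c was not analysed here.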

Additional observations from a re-analysis of the deposited data

Results flagged for a closer look

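Single treated libraries stood far from the other 5 in 12 of 37 sets of values checked with Dixon's test. The limit used flags about 1 in 20 sets that are independent and normally spread. These sets shared libraries and genes, sums held genes that were also checked alone, and some sets rested on a few counts. The 12 therefore cannot be set against that rate. The 100 μM library of day 10 was the highest in 9 of them. It had 5.91 CPM of Hist2h3c1, 3.47 CPM of Hist1h2br, 1.14 CPM of Hist1h2ac, 0.670 CPM of Hist1h2ae, 0.276 CPM of Hist1h3c and 0.276 CPM of Hist1h4m. Its sums were 12.4 CPM for H3, 112.7 CPM for the core histones and 150.8 CPM for all clustered histones, and it was the treated library with the fewest counts (27108562). The 150 μM library of day 5 had 5.84 CPM of Hist3h2a, the 200 μM library of day 5 had the lowest level of Hist1h1e (0.693 CPM), and the 100 μM library of day 5 had the highest level of Hist1h2bb (0.201 CPM).

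On day 5 all 3 treated libraries lay below 0 μM, and on day 10 all 3 lay above it, for the summed H3 genes, the summed H4 genes and 4 of the 30 named genes. The log2 difference to 0 μM was larger on day 10 by 1.74 for H3 and by 1.61 for H4, and these differences of sums were not tested. The interaction term in edgeR was 1.66 for Hist1h1e, 1.75 for Hist1h4k, 2.55 for Hist1h4j and 3.49 for Hist1h4m, with adjusted p = 0.54, 0.608, 0.573 and 0.644.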

How the results depend on the processing

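Counts of called histones depended on single libraries. With each library left out, the number higher than 0 μM lay between 2 and 9 and the number lower between 3 and 10, with the extremes from leaving out a 0 μM library, except that 2 higher was also reached without 200 μM on day 5. With 100 μM on day 10 left out, 9 were lower. The numbers against untreated cells lay between 0 and 1 higher and between 7 and 14 lower, and those between days stayed at 0. Against 0 μM, limma on log2(FPKM + 1) gave 2 higher and 2 lower, the untreated libraries added to 0 μM gave 0 higher, and a filter of at least 1 count in total gave 8 lower. With near-identical copies summed, chosen after the data were seen, 1 unit was lower than 0 μM and 7 were lower than untreated cells. Hist2h2be turned to -1.50 (adjusted p = 0.034) with the untreated libraries added to 0 μM.

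The summed log2 differences to 0 μM (0.29 for linker H1, 0.77 for H2A, 0.72 for H2B, -0.05 for H3, -0.09 for H4 and 0.50 for all) became -0.16, -0.82, -0.74, -0.46, -1.36 and -0.67 with untreated cells in place of 0 μM. Without the most abundant gene they became -0.17 for linker H1, 0.59 for H2A, 0.16 for H2B, -0.66 for H3 and -0.38 for H4. As FPKM sums, H3 gave -0.63 and H4 -0.46. With genes that have no near-identical copy, H2A gave 0.06 and H3 -1.09. With each library left out, the ranges were 0.02 to 0.63 for linker H1, 0.59 to 0.99 for H2A, 0.40 to 1.14 for H2B, -0.62 to 0.91 for H3, -0.63 to 0.80 for H4 and 0.19 to 0.91 for all. No paired analysis was possible because the labels give no replicate numbers that the groups share, and the day they do share was already a covariate against 0 μM. Genes with a few counts per library limit what these depths can show.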
